A study of Mus musculus with 8 samples.

Results

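Glycolysis breaks glucose down to pyruvate and lactate and supplies ATP to contracting muscle. Glycogen is the branched glucose store from which muscle feeds that pathway. Glycogen synthase lengthens the chains, glycogen phosphorylase shortens them, and phosphorylase kinase and protein phosphatase 1 switch these enzymes between active and inactive forms. Many of the enzymes exist as several isoforms, of which one is typical of skeletal muscle and others of most tissues or of brain, liver or heart. The members described here are 33 genes, 19 coding for steps of glycolysis and 14 for glycogen enzymes and their regulators. They were listed by name, but with earlier results of these data known, so the list is not independent support. Each was read from 1 probe set, the brightest over the 4 arrays of a type, with array type A taken before type B. Of the 33 genes, 31 had a probe set annotated to them alone, among 18194 such genes in the series. Gpi1 (glucose phosphate isomerase) and Eno1 (the widespread enolase) were not analysed here.

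The series is titled as a study of genes regulated by Egr3, an activity-induced zinc-finger transcription factor, in primary myotubes, the multinucleated cells formed when mouse muscle precursors fuse. Total RNA was measured on oligonucleotide expression arrays, with each of 4 RNAs on 1 array of each of 2 types, or 8 samples. One RNA is labelled wildtype and another truncated Egr3, both with the treatment type grow. RNA275 is labelled with the treatment type acclimatization and RNA276 with no treatment, so these RNAs belong to no stated group, and their values are given as a description. The labels name no strain, no age and no number of cultures or animals behind an RNA, and do not say how the truncated Egr3 was made, introduced or expressed. The A and B arrays of an RNA hold different probe sets and are not replicates. As each label has 1 RNA, there is no replicate check, no test and no p-value, and each difference describes these RNAs and not the conditions.

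The deposited intensities had the same trimmed mean, 150.0, on all 8 arrays. A gene counted as measured when the wildtype or the truncated-Egr3 RNA was above a signal floor, 67.6 on type A and 112.6 on type B, which held for 10308 genes. The labelled tissue was checked against 10 skeletal muscle markers, all of which were measured, with a summed intensity of 20696 in the wildtype RNA, 18673 in the truncated-Egr3 RNA, 16448 in RNA275 and 18316 in RNA276. Egr3 was bright in all 4 RNAs on both array types, from 769 to 2627 on type A and from 771 to 1420 on type B. RNA276 was highest and wildtype lowest on type A, and the reverse held on type B. The log2 difference of Egr3, wildtype minus truncated Egr3, was -0.11 and 0.45 on these types. Where its probe sets lie relative to the truncation was not analysed here, so they do not check the label. Technical error alone could be measured. For the 100 probe sets that both types carry, those named as controls left out, a single log2 difference between wildtype and truncated Egr3 had a technical SD of 0.18. That difference read 0.14 higher on type A than on type B. The SD leaves out this offset and was not taken separately for dim signals, so it may not hold for members near the floor. No member is among those 100, and Gapdh, read from controls on both types, is given by type below. When a gene had several measured probe sets, these disagreed in that log2 difference by a root mean square of 0.40 (11818 pairs). Fewer cells of a type and less RNA per cell cannot be told apart in such bulk RNA.

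The glycogen genes were mostly higher in the truncated-Egr3 RNA, while the glycolysis genes were divided about equally between the RNAs. Of the 33 members, 27 were measured, and all 27 were above the floor in both the wildtype and the truncated-Egr3 RNA. Ppp1r3b, a subunit that carries protein phosphatase 1 to glycogen, was the only member at least 2-fold apart, higher in the truncated-Egr3 RNA. That threshold was passed in the same direction by 0.534% of all measured genes. No member had a wildtype value at least 2-fold above truncated Egr3, against 1.13% of all measured genes. At 1.5-fold, 3 members were higher in the truncated-Egr3 RNA (Ppp1r3b, Ppp1r3c and Phkb), all of them glycogen genes, against 4.70% of all genes, and none was higher in the wildtype RNA, against 4.59%. With the medians of the arrays made equal, those background shares became 7.52% and 3.31%, and 4 members, Pgm1 being the fourth, were past 1.5-fold in the truncated-Egr3 RNA. Counting every size of difference, 17 of 27 members were higher in the truncated-Egr3 RNA, against 50.1% of all genes. With equal medians the count was 19 of 27, against 61% of all genes. On the deposited scale, the 17 were 10 of 12 glycogen genes and 7 of 15 glycolysis genes. With the median over probe sets the counts were 9 of 12 and 9 of 15. Among the 10 glycogen genes, Pygm, Phka1 and Phkg2 differed by less than the technical SD. Phka1 counts here by its chosen probe set only, since its other measured one gave 0.62. The median log2 difference, wildtype minus truncated Egr3, was -0.38 over the 12 glycogen genes, 0.02 over the 15 glycolysis genes and -0.00 over all measured genes.

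**Figure D1:**
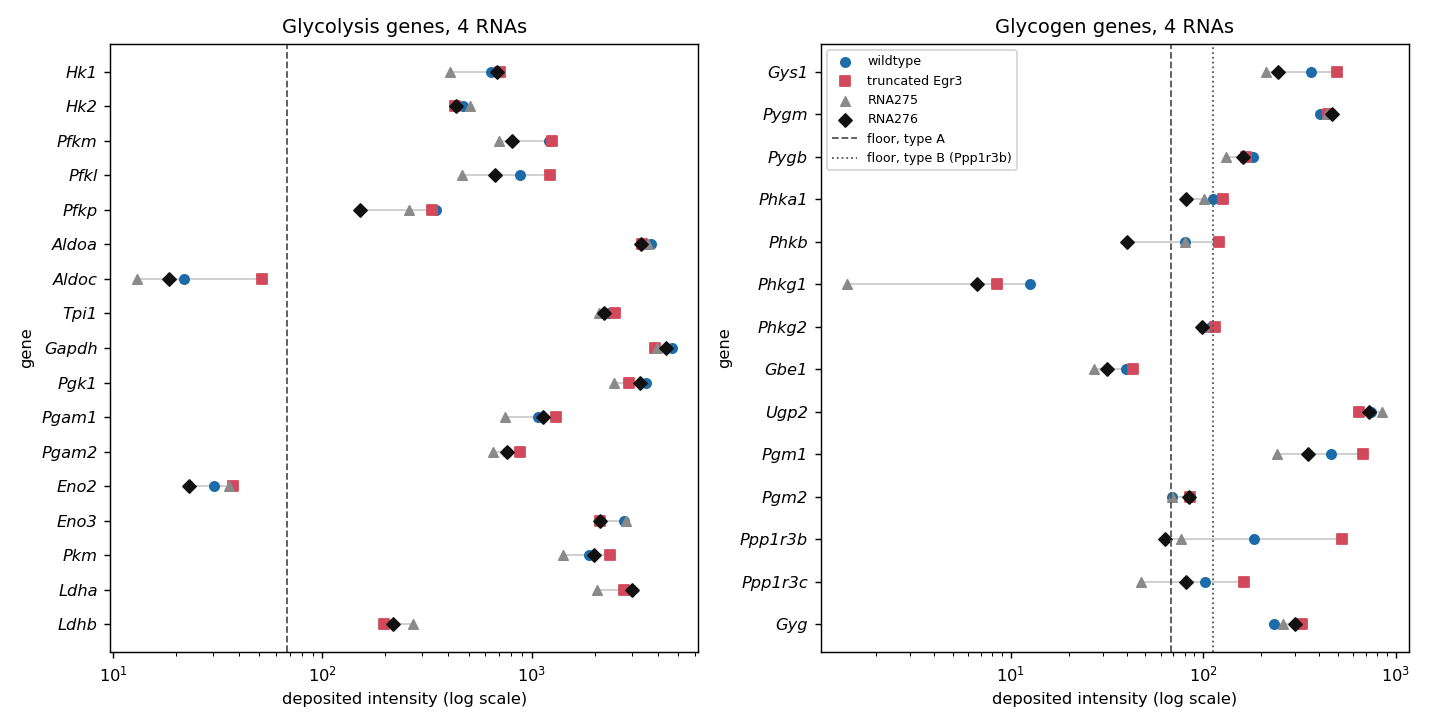
Deposited intensity (log axis) of the chosen probe set of each of 31 members in the 4 RNAs, glycolysis genes on the left and glycogen genes on the right; each point is 1 array, so there is no error bar, and the vertical lines are the signal floors of 67.6 (type A) and 112.6 (type B, for Ppp1r3b). Pfkl, Gys1, Pgm1, Ppp1r3b and Ppp1r3c are spread over more than 2-fold with the truncated-Egr3 RNA highest, and Aldoc, Eno2, Phkg1 and Gbe1 lie below the floor in every RNA.

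Glycolysis opens with hexokinase, which traps glucose in the cell as glucose 6-phosphate. Hk1, the isoform of most tissues, read 641 in the wildtype RNA, 702 in the truncated-Egr3 RNA, 405 in RNA275 and 683 in RNA276. Hk2, the insulin-responsive isoform of muscle and fat, read 470, 430, 508 and 435 in the same order. The log2 differences, wildtype minus truncated Egr3, were -0.13 for Hk1 and 0.13 for Hk2, both within the technical SD. RNA275 was the lowest of the 4 RNAs for Hk1 and the highest for Hk2.

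Phosphofructokinase commits the sugar to glycolysis and is its main point of control. Pfkm, the muscle isoform, read 1212 in the wildtype RNA, 1247 in the truncated-Egr3 RNA, 697 in RNA275 and 801 in RNA276. Pfkl, the liver isoform, read 878, 1219, 467 and 668. The truncated-Egr3 RNA was thus highest for Pfkl, 1.39-fold above the wildtype RNA, a log2 difference of -0.47, and its other 2 probe sets gave -0.58 and -0.51. The whole range of Pfkl over the 4 RNAs was 2.61-fold by the chosen probe set. Its type B probe set read 184, 261, 178 and 262, a range of 0.56 on the log2 scale with RNA276 level with truncated Egr3. Pfkp, the platelet isoform, read 350, 335, 259 and 151, so wildtype and truncated Egr3 were alike (0.06) and RNA276 stood lowest. The sign of the Pfkp difference was not stable, at -0.18 by its type B probe set and -0.00 with equal medians.

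Pfkp was also 1 of 3 member genes whose promoter held a spelling of the nine-base GC-rich element that Egr zinc fingers bind, and its promoter is shown for that reason. In RefSeq promoters of the GRCm38.p6 assembly (250 bases before to 50 after a gene's start), searched on both strands, GCGTGGGCG occurred in 0.612% and GCGGGGGCG in 2.91% of 32851 promoters. Either spelling occurred in 3.47% of all promoters and in 3 of 44 promoters (6.82%) of the 32 members that matched by symbol; Ppp1r3b was not matched. The spelling GCGTGGGCG in Pfkp began 23 bases before the start. The 250 bases before the start lie at chr13:6648772-6649021 on the minus strand and are printed in the direction of the gene, with the spelling in capitals.
Pfkp: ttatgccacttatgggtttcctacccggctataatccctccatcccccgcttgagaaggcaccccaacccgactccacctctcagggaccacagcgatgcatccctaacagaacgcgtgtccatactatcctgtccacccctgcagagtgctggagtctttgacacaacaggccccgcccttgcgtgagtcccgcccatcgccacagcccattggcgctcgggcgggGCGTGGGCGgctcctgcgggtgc
A match describes letters only and is no evidence of binding.

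The middle steps split fructose bisphosphate and carry out the first ATP-yielding reactions. Aldoa, the muscle aldolase, read 3728 in the wildtype RNA, 3374 in the truncated-Egr3 RNA, 3594 in RNA275 and 3338 in RNA276, a range of 1.12-fold, or 0.16 on the log2 scale. Its log2 difference was 0.14, and its 5 probe sets, all marked for possible cross-hybridisation, spanned -0.25 to 0.14. Their ranges over the 4 RNAs went up to 0.70 on the log2 scale for the type B probe set, where RNA276 was highest (7276 against 4472 to 5140), so the order of the RNAs for Aldoa depended on the probe set. Aldoc, the brain aldolase, was below the floor in all 4 RNAs, at 21.9, 51.5, 13.0 and 18.5. Tpi1, triosephosphate isomerase, read 2333, 2492, 2094 and 2219, a log2 difference of -0.09 with its 3 probe sets between -0.18 and -0.07. The range of Tpi1 over the 4 RNAs was 1.19-fold.

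Gapdh, which makes the high-energy intermediate 1,3-bisphosphoglycerate, was read from the array maker's control probe sets only. The brightest on type A gave 4662 in the wildtype RNA, 3863 in the truncated-Egr3 RNA, 3974 in RNA275 and 4403 in RNA276, a log2 difference of 0.27. The other controls on type A gave 0.08 and 0.15, whereas the 3 on type B gave -0.27, -0.21 and -0.22, so the direction for Gapdh depended on the array type, and it also turned with quantile normalization (-0.01). Pgk1, phosphoglycerate kinase, read 3525, 2902, 2474 and 3291 by its brightest probe set, a log2 difference of 0.28. Its other probe sets gave -0.04 and 0.01, so that difference rests on 1 probe set, which is marked for possible cross-hybridisation.

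The last steps move the phosphate, form phosphoenolpyruvate and release pyruvate. Pgam1, the widespread phosphoglycerate mutase, read 1076 in the wildtype RNA, 1303 in the truncated-Egr3 RNA, 746 in RNA275 and 1127 in RNA276, a log2 difference of -0.28. Pgam2, the muscle mutase, read 763, 878, 650 and 760, a log2 difference of -0.20. Both mutases were highest in the truncated-Egr3 RNA and lowest in RNA275. Eno3, the muscle enolase, went the other way, at 2768, 2129, 2823 and 2130. Its log2 difference of 0.38, or 1.30-fold higher in the wildtype RNA, was the largest in that direction among the chosen probe sets of the 27 members. It stayed between 0.29 and 0.38 under the 4 scalings. Eno3 has no other probe set here, and the value is below the 0.40 by which probe sets of a gene disagreed. RNA275 read about as high as wildtype and RNA276 about as high as truncated Egr3. Eno2, the neuronal enolase, was below the floor in all 4 RNAs, at 30.3, 37.4, 35.7 and 22.9.

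Pkm, pyruvate kinase of muscle and most other tissues, read 1869 in the wildtype RNA, 2353 in the truncated-Egr3 RNA, 1417 in RNA275 and 1979 in RNA276, a log2 difference of -0.33. Its splice forms M1 and M2 were not separated here. Ldha, the lactate dehydrogenase subunit of fast muscle, read 2997, 2755, 2048 and 3023, a log2 difference of 0.12. Ldhb, the subunit of heart and slow muscle, read 199, 196, 272 and 216, a log2 difference of 0.02 that turned to -0.04 with equal medians. RNA275 was therefore lowest for Ldha and highest for Ldhb. The other Ldhb probe sets showed RNA275 highest too, at 114, 222 and 177 against at most 48.3, 144 and 93.0 in the other 3 RNAs.

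Synthesis of glycogen starts from glucose 6-phosphate, which phosphoglucomutase turns into glucose 1-phosphate. Pgm1, the main phosphoglucomutase, read 460 in the wildtype RNA, 676 in the truncated-Egr3 RNA, 242 in RNA275 and 351 in RNA276. Truncated Egr3 exceeded wildtype 1.47-fold, a log2 difference of -0.56, and its range over the 4 RNAs was 2.80-fold. Its type B probe set gave a smaller difference of -0.22 and a range of 0.55 on the log2 scale. Pgm2, which works mainly on pentose phosphates, read 68.9, 85.4, 68.4 and 84.1, close to the floor, a log2 difference of -0.31. Names of this pair were swapped in older annotations and were assigned here by gene number. Ugp2 makes the donor UDP-glucose, and it read 747, 642, 848 and 725, a log2 difference of 0.22. Its 5 probe sets spanned -0.13 to 0.25. RNA275 was highest by all 5, but the place of RNA276 depended on the probe set. Other Ugp2 probe sets read 533, 453, 651 and 312, or 185, 185, 234 and 104. Their ranges were 1.06 and 1.17 on the log2 scale, against 0.40 by the chosen one.

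Gyg, glycogenin, primes each new particle, and it read 234 in the wildtype RNA, 328 in the truncated-Egr3 RNA, 259 in RNA275 and 300 in RNA276. Its log2 difference was -0.48, with -0.37 by the type B probe set, and wildtype was the lowest of the 4 RNAs. Gys1, the muscle glycogen synthase, read 364, 495, 211 and 244. Truncated Egr3 exceeded wildtype 1.36-fold, a log2 difference of -0.44, and the other probe set gave -0.63. Both labelled RNAs thus exceeded RNA275 and RNA276 by the chosen Gys1 probe set, with a range of 2.35-fold, while the other read 155, 241, 117 and 161. Gbe1, the branching enzyme, was below the floor in all 4 RNAs, at 39.8, 42.9, 27.0 and 31.6.

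The promoters of 5 members are shown, namely Pfkp above and, here, 4 glycogen genes: Gys1 and Phka1, which hold the other Egr spelling, and Pgm1 and Ppp1r3c, which are among the members that differed most and hold the letters ACGTG. These letters are the core of the hypoxia response element and also lie in the E-box CACGTG. They occurred in 19.6% of all promoters and in 19 of 44 member promoters (43.2%), which belong to 17 genes, Ldha, Pgk1, Aldoa and Hk2 among them. Of other members that differed most, Gyg holds ACGTG, Phkb, Pfkl and Gys1 do not, and Ppp1r3b has no matched promoter. Pgm1 and Ppp1r3c were thus picked by both values and letters, and a link of letters to differences was not tested. Several members have more than 1 promoter entry, and these can overlap. In Gys1 (chr7:45434589-45434838, plus strand) GCGGGGGCG lies on the strand opposite to the one printed, its first printed base 148 bases before the start. In Phka1 (chrX:102644247-102644496, minus strand) it is likewise on the opposite strand, 18 bases before the start. Pgm1 (chr4:99929201-99929450, plus strand) has ACGTG 208 and 181 bases before the start. Ppp1r3c (chr19:36736605-36736854, minus strand) has it 189 and 104 bases before the start on the opposite strand and 103 bases before on the printed one, the last pair overlapping as CACGTG. Each is printed in the direction of its gene, with these letters in capitals.
Gys1: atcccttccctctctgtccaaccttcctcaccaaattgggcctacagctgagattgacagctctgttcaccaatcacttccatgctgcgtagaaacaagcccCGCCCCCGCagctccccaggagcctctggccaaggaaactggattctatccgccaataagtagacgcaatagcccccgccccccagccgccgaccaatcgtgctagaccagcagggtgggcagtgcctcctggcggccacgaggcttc
Phka1: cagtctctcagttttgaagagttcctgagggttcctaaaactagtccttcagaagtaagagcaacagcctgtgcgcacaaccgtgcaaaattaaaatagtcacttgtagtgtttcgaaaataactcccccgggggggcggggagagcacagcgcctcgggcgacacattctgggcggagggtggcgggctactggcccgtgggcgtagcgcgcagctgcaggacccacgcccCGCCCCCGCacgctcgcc
Pgm1: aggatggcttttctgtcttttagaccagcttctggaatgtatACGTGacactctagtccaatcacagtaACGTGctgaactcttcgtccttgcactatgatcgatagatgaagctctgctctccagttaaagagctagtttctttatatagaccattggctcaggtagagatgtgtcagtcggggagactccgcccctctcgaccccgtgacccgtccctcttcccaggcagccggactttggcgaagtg
Ppp1r3c: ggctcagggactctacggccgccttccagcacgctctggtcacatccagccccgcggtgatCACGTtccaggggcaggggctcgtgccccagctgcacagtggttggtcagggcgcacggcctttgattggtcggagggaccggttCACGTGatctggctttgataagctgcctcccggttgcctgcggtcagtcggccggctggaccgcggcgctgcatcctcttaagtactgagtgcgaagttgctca

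Breakdown of glycogen is carried out by phosphorylase. Pygm, the muscle isoform that is missing in McArdle disease, read 406 in the wildtype RNA, 446 in the truncated-Egr3 RNA, 439 in RNA275 and 465 in RNA276, a range of only 1.15-fold. Pygb, the brain isoform that is also present in fetal muscle, read 182, 166, 132 and 162. The log2 differences of -0.13 and 0.13 were within the technical SD. Pygb had a range of 1.38-fold, so both phosphorylases varied less over the 4 RNAs than the synthase Gys1 did.

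Phosphorylase kinase, which activates phosphorylase, has regulatory alpha and beta subunits and a catalytic gamma subunit. Phka1, the muscle alpha subunit, read 112 in the wildtype RNA, 127 in the truncated-Egr3 RNA, 101 in RNA275 and 80.9 in RNA276, a log2 difference of -0.17. A second probe set gave 0.62, the opposite direction, so no direction is given for Phka1. Phkb, the beta subunit, read 80.5, 121, 80.6 and 39.997, the last below the floor. The truncated-Egr3 RNA was highest, 1.503-fold above wildtype, a log2 difference of -0.59. With the higher floor that difference was -0.25, since the wildtype value then lay at the floor. Phkg2, the gamma subunit of liver and testis, read 110, 115, 101 and 98.0, a log2 difference of -0.06. Phkg1, the muscle gamma subunit, was below the floor in all 4 RNAs, at 12.6, 8.45, 1.41 and 6.65.

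The targeting subunits bring protein phosphatase 1 to glycogen, where it activates synthase and inactivates phosphorylase. Ppp1r3b, which is also called GL, read 183 in wildtype and 523 in truncated Egr3. RNA275 at 76.1 and RNA276 at 63.1 were both below the type B floor of 112.6. The truncated-Egr3 RNA was 2.85-fold above wildtype, a log2 difference of -1.51, and at least 4.65-fold above the lowest RNA. With equal medians the difference was -1.67, while the median of type B genes moved from -0.03 to -0.17. Only this 1 probe set, on type B, reads Ppp1r3b. Ppp1r3c, which is also called PTG, read 102, 162, 47.5 and 81.2, with RNA275 below the floor. Truncated Egr3 exceeded wildtype 1.59-fold, a log2 difference of -0.67, and its second probe set gave -0.58. Both subunits thus had the same order for the labelled RNAs, truncated Egr3 above wildtype, and wildtype above RNA275 and RNA276.

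**Figure D2:**
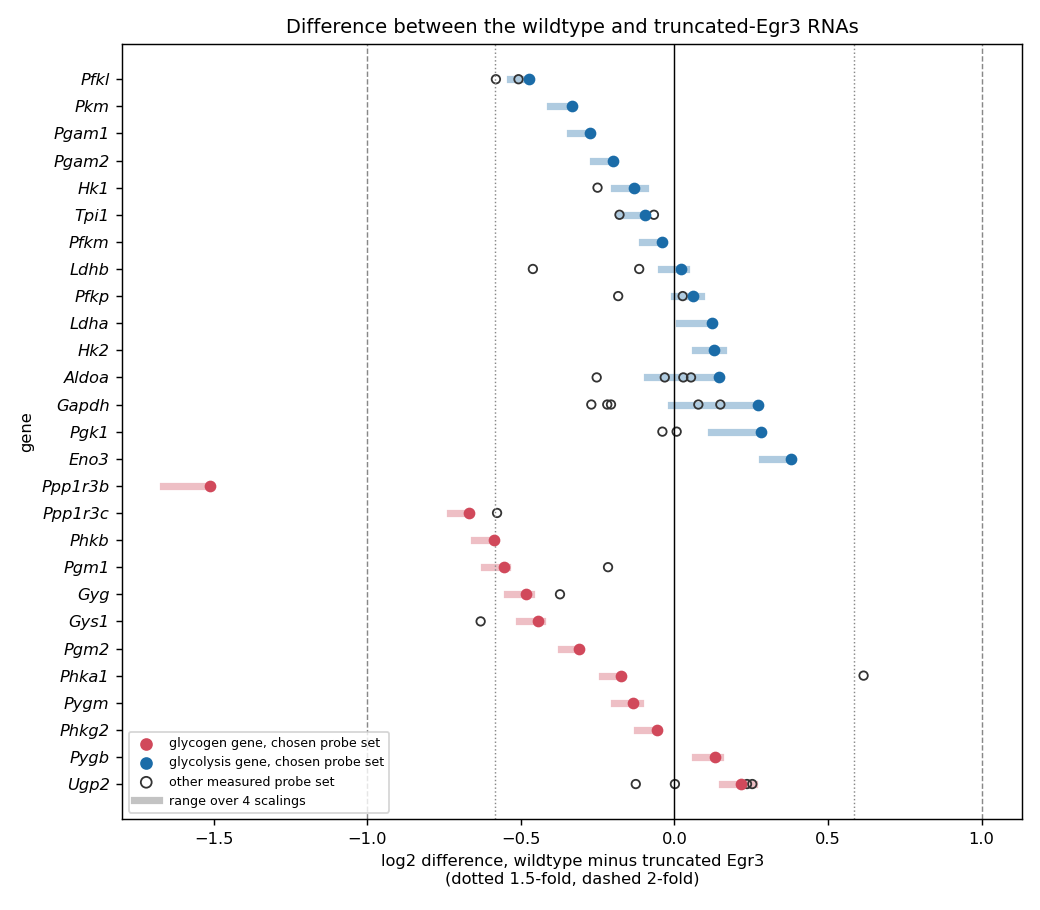
Log2 difference, wildtype minus truncated Egr3, of the 27 measured members (1 array per RNA, no error bar). Filled points are the chosen probe sets, open circles the other measured probe sets of the gene, and bars the range over 4 scalings. By the chosen probe sets 10 of 12 glycogen genes and 7 of 15 glycolysis genes lie below 0. Phka1 is among the 10, but its open circle lies above 0, at 0.62. Ppp1r3b alone lies beyond the 2-fold line.

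Other probe sets of the members were a further reading of the same RNAs. Of the 27 members, 14 had more than 1 measured probe set, and in 7 of these all probe sets had the same sign (Gyg, Gys1, Hk1, Pfkl, Pgm1, Ppp1r3c and Tpi1). Gyg, Gys1, Hk1, Pgm1 and Ppp1r3c had only 2 such probe sets each. The share over all genes was not computed, so the count of 7 has no background beside it. Over the 4 scalings (deposited, quantile, equal medians and loess), the sign turned for 4 of 15 glycolysis genes, Pfkp, Aldoa, Gapdh and Ldhb, and for none of 12 glycogen genes.

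Across all 4 RNAs, the members varied about as much as other genes. The median range from the lowest to the highest RNA was 0.51 on the log2 scale for the 27 members and 0.54 for all genes. All genes are here the 11155 above the floor in any of the 4 RNAs. A range of at least 2-fold was seen for 6 of 27 members (Pfkl, Pfkp, Gys1, Pgm1, Ppp1r3b and Ppp1r3c), against 14.8% of all genes. The count was 4 with the median over probe sets and 9 with no floor, and the type B probe sets of Pfkl and Pgm1 ranged by 0.56 and 0.55 on the log2 scale. The truncated-Egr3 RNA was the highest of the 4 for 16 of 27 members, against 24.0% of all genes, and this held for 9 of 12 glycogen genes and 7 of 15 glycolysis genes. RNA275 was the lowest for 14 of 27, against 25.3% of all genes, and 9 of these 14 were glycolysis genes.

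Muscle and other isoforms were compared as lists and as pairs. The 9 measured muscle isoforms had a median log2 difference, wildtype minus truncated Egr3, of -0.04, and the 7 measured other isoforms one of -0.06. Their median ranges over the 4 RNAs were 0.43 and 0.79. Of 10 pairs, 6 had both isoforms measured. The change of the muscle isoform exceeded that of the other by 0.43 for Pfkm and Pfkl, 0.26 for Hk2 and Hk1, 0.10 for Ldha and Ldhb and 0.07 for Pgam2 and Pgam1. It fell short of it for Pfkm and Pfkp (-0.10) and for Pygm and Pygb (-0.27). The median over the 6 pairs was 0.09. The change was above 0 for 4 of 6 pairs on the deposited scale, for 3 of 6 with quantile normalization or loess, for 5 of 7 with the lower floor and for 7 of 9 with no floor.

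The same pairs were read in all 4 RNAs. Each pair's log2 ratio was set relative to its own median over the 4 RNAs, since levels of different probe sets cannot be compared. RNA275 lay towards the muscle isoform for 4 pairs, at 0.87 for Hk2 over Hk1, 0.33 for Pgam2 over Pgam1, 0.26 for Pygm over Pygb and 0.21 for Pfkm over Pfkl, but at -0.89 for Ldha over Ldhb and -0.42 for Pfkm over Pfkp. RNA276 lay at 0.56 for Pfkm over Pfkp, where Pfkp itself was lowest, and between -0.10 and 0.05 for the other 5 pairs.

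**Figure D3:**
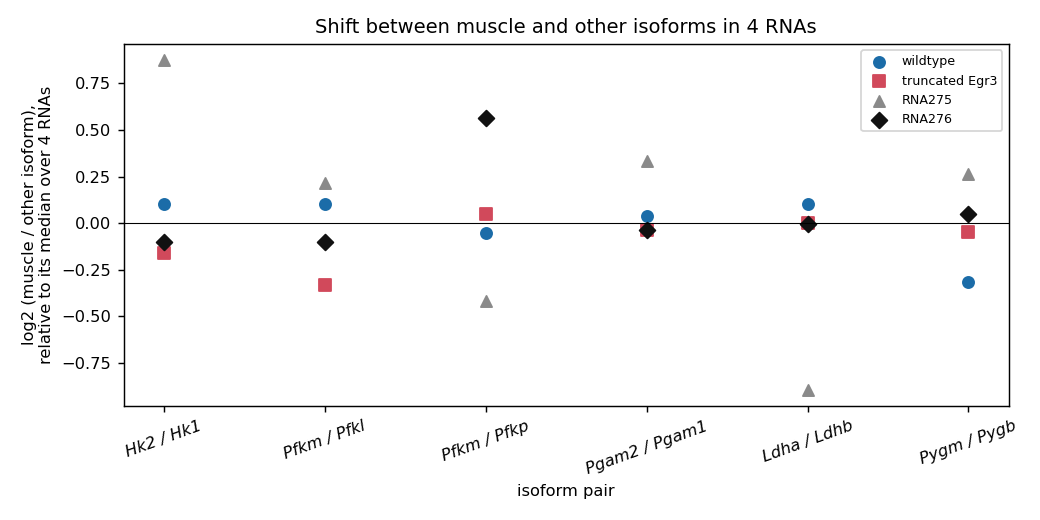
Log2 ratio of the muscle isoform to the other isoform for 6 measured pairs, each relative to its median over the 4 RNAs (1 array per point, no error bar). RNA275 is the farthest from 0 for Hk2 over Hk1 (0.87) and Ldha over Ldhb (-0.89), in opposite directions, and the wildtype and truncated-Egr3 RNAs differ by no more than 0.43.

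Other genes of glucose and glycogen use were read from 5 lists of 73 genes in all, of which 57 were measured. In the truncated-Egr3 RNA 40 of the 57 were higher, 6 of them at least 1.5-fold and 3 at least 2-fold, and for 3 of 57 the wildtype value exceeded truncated Egr3 by at least 1.5-fold. Of all measured genes, 50.1% were higher in the truncated-Egr3 RNA, or 61% with equal medians. At 1.5-fold the shares were 4.70% in that direction and 4.59% in the other, and at 2-fold 0.534% were higher in truncated Egr3. The median log2 difference of the 57 genes was -0.17.

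Of 8 transporters of glucose and lactate 7 were measured, and all 7 were higher in the truncated-Egr3 RNA, with a median of -0.54. Slc2a3 (GLUT3), a high-affinity glucose transporter, read 218 in the wildtype RNA, 491 in the truncated-Egr3 RNA, 76.1 in RNA275 and 62.6 in RNA276, 2.25-fold higher in truncated Egr3. Slc16a3 (MCT4), which exports lactate from glycolytic muscle, read 453, 968, 234 and 444, a 2.14-fold difference. Slc2a1 (GLUT1), the basal glucose transporter, read 456, 715, 439 and 369, a 1.57-fold difference. In each of the 3, the truncated-Egr3 RNA was the highest of the 4. Further probe sets gave log2 differences of -1.02 for Slc2a3 and of -0.89 and -0.58 for Slc2a1, beside -1.17 and -0.65 by the chosen ones. Both measured Slc2a3 probe sets are marked for possible cross-hybridisation, and its other 2 were below the floor in all 4 RNAs.

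Genes that control the flux had 8 of 16 measured, with a median of -0.25. In the truncated-Egr3 RNA 5 of the 8 were higher, close to the 61% of all genes with equal medians. Pfkfb3, which makes the phosphofructokinase activator fructose 2,6-bisphosphate, read 42.1 in the wildtype RNA, below the floor, and 118 in the truncated-Egr3 RNA, at least 1.74-fold higher. RNA275 at 41.5 and RNA276 at 57.2 were below the floor as well, and the second probe set was below it in all 4 RNAs. Pklr, the pyruvate kinase of liver and red cells, was 1.59-fold higher in the wildtype RNA, at 108 against 68.1, with RNA275 at 51.5 and RNA276 at 63.3 below the floor. Both differences were close to the floor, and with the higher floor they were -0.22 and 0.10 on the log2 scale.

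Genes of pyruvate entry into mitochondria had 13 of 14 measured, with a median of -0.17. In the truncated-Egr3 RNA 11 of the 13 were higher, against 50.1% of all genes. Pdk1, the kinase that switches pyruvate dehydrogenase off, read 280 in the wildtype RNA, 472 in the truncated-Egr3 RNA, 156 in RNA275 and 185 in RNA276, 1.68-fold higher in truncated Egr3. Its 4 probe sets all had that direction, between -0.33 (a bound) and -1.17. No other gene of the list reached 1.5-fold.

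Of 23 other glycogen genes 18 were measured, with a median of -0.17. In the truncated-Egr3 RNA 12 were higher, against 50.1% of all genes, or 61% with equal medians. That lean lay mostly with the type B genes, which were all higher in that RNA except Nhlrc1. The type A genes were divided about equally. As given above, the log2 difference read 0.14 higher on type A than on type B. Stbd1, which binds glycogen and tethers it to membranes, read 214 in the wildtype RNA, 485 in the truncated-Egr3 RNA, 195 in RNA275 and 280 in RNA276, 2.26-fold higher in truncated Egr3. Epm2a, the glycogen phosphatase laforin, was higher in wildtype, by at least 1.51-fold, at 102 against 51.2, with 78.9 in RNA275 and 57.0 in RNA276. Its second probe set went the other way, at -0.10 as a bound. Among the genes of side branches, 11 of 12 were measured, 5 higher in the truncated-Egr3 RNA, with a median of 0.00. Gpd1, which links glycolysis to glycerol lipids, was likewise higher in wildtype, by at least 1.52-fold, at 103 against 43.2, with 126 in RNA275 and 43.2 in RNA276.

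**Figure D4:**
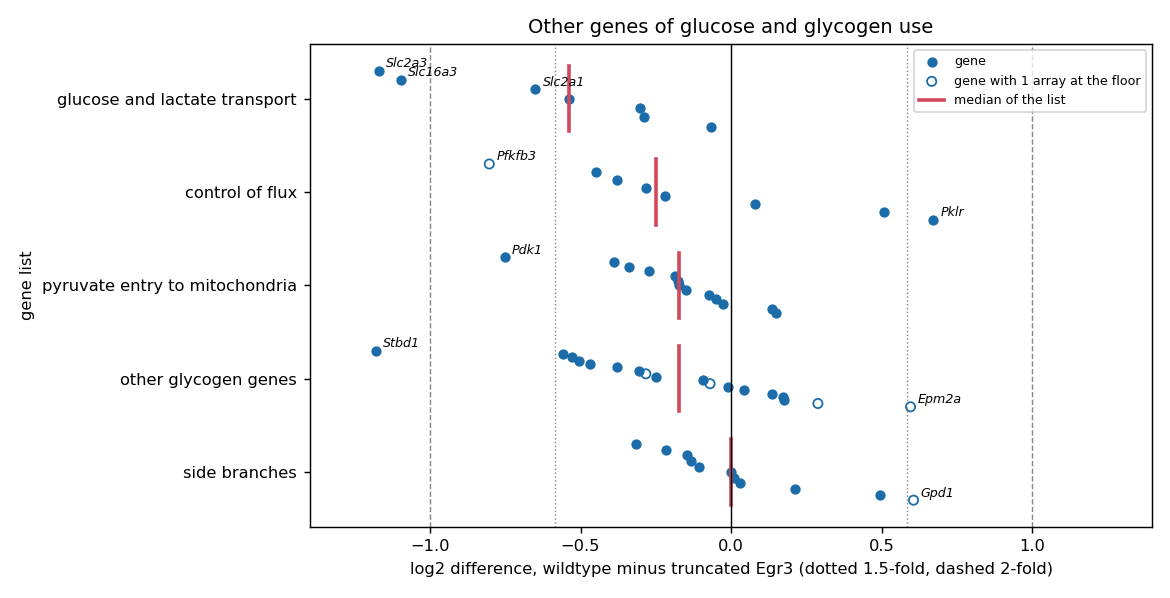
Log2 difference, wildtype minus truncated Egr3, of 57 measured genes in 5 lists of glucose and glycogen use (1 array per RNA, no error bar); open points have 1 array at the floor and are lower bounds, and red lines are list medians. All 7 transport genes lie below 0 (median -0.54), and the 11 genes of side branches lie on both sides of it (median 0.00).

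Markers of other cells moved between the same RNAs and are given beside these results. Of 8 fibroblast markers 5 were measured, and the summed intensity of the list was 9596 in the wildtype RNA, 9226 in the truncated-Egr3 RNA, 7982 in RNA275 and 8871 in RNA276. Within that list Dcn was higher in the truncated-Egr3 RNA, at 317 against 157 in wildtype. Col1a1 (3417 against 4295) and Col1a2 (136 against 155) were lower there, Col3a1 and Postn had log2 differences of -0.08 and -0.17, and Pdgfra, Thy1 and Lum were below the floor. Of 5 markers of smooth muscle and pericytes, 2 were measured, Tagln (1946 against 1093) and Pdgfrb (442 against 322), both higher in the wildtype RNA. The list summed to 2465 in the wildtype RNA, 1479 in the truncated-Egr3 RNA, 2063 in RNA275 and 1491 in RNA276, and Myh11 and Cnn1 were below the floor. Of 4 markers of dividing myoblasts with a probe set, 3 were measured and higher in the wildtype RNA (median 0.30), with sums of 1073, 870, 933 and 1063 in the same order, and Pax7 was below the floor. The measured skeletal muscle markers had a median log2 difference of 0.15. Of the macrophage markers 1 of 8 was measured, of neuron and glia 1 of 7, of endothelium 1 of 5 and of adipocytes 0 of 4, with Ptprc, Snap25, Pecam1 and Adipoq below the floor in all 4 RNAs. The part of the markers that moved in the enzyme differences was not tested.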

How the data were processed

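Total RNA of mouse myotubes was measured on array types A and B. Each deposited value is a linear intensity of a probe set, which the authors had already brought to a shared scale, as the equal trimmed means show. How they did so is not given in the sources used here. That scale was kept. It assumes a like total signal per RNA. Probe sets with 1 gene symbol (20393 on type A, 14674 on type B) were named by gene number through a RefSeq table of GRCm38.p6, which 20364 and 14499 matched. Those with several symbols (691 and 245) or none (1606 and 7656) were not named, and controls other than those of Gapdh were left out.

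As a floor, the 50th percentile (type A) or 60th (type B) over the 2 labelled RNAs was used before taking log2. A fold with the dimmer array at the floor is a lower bound. The number of arrays limits the precision. Groups came from the labels. Named are all members, and of the pathway lists every gene at least 1.5-fold apart, plus markers. The members, lists and rules were chosen with earlier results of these data known, so none is independent support. The 8 alternatives were 3 scalings, 3 floors and 2 choices of probe set. The counting was tested on simulated data with large planted changes in bright genes only. That simulation does not cover smaller folds or signals near the floor. Computation used statsmodels 0.14.6, scipy 1.17.1, pandas 2.3.3 and numpy 2.4.6 under Python 3.11.15, with plots by matplotlib 3.10.9.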

Additional observations from a re-analysis of the deposited data

Results flagged for a closer look

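Pdp1, the phosphatase that switches pyruvate dehydrogenase on, was high in RNA275, an RNA that enters no comparison of groups. It is no member and was singled out after its values were seen. By its brightest probe set, on type B, it read 1934 in RNA275, against 681 in the wildtype RNA, 694 in the truncated-Egr3 RNA and 602 in RNA276. Its other probe set, also on type B, read 628 in RNA275, against 313, 288 and 258 in the same order. RNA275 was the highest of the 4 RNAs by both probe sets. The labels give RNA275 no group, and the difference was not tested.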

How the results depend on the processing

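The count of members at least 2-fold apart was 1 under 7 of the 8 alternatives and 2 with no floor, where differences between signals below the floor count as well. Members at least 1.5-fold apart numbered 2 to 4, and those with a 2-fold range over the 4 RNAs 4 to 9. The median of the isoform pairs lay between 0.04 and 0.26. The median of the glycogen genes stayed below 0, from -0.44 to -0.24. That of the glycolysis genes lay between -0.06 and 0.02, and its sign followed the setting. Among single members, the median over probe sets turned Gapdh (-0.06), Ldhb (-0.11) and Phka1 (0.22), equal medians turned Ldhb (-0.04) and Pfkp (-0.00), quantile normalization turned Aldoa (-0.09) and Gapdh (-0.01), and leaving out probe sets marked for cross-hybridisation turned Pgk1 (-0.04) and left no value for Aldoa or Slc2a3. Equal medians moved the median of all genes from -0.00 to -0.09. Signals near the floor limit Phkb, Pgm2, Ppp1r3c and the dimmer pathway genes: with the higher floor Epm2a and Gpd1 read 0.01 and 0.02. No paired analysis was possible because each label has 1 RNA, and for the same reason no replicate could be left out.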
